A study of Rattus norvegicus with 16 samples.

Results

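Rat levator ani satellite cells (LASCs) that had been exposed to an androgen receptor agonist for 48 h were compared with cells of the same treatment at 4 h, on 6 of the 16 arrays of the series. The groups were NARA 48 h replicates 1 to 4 and NARA 4 h replicates 2 and 3, and NARA is the labels' name for a nonsteroidal agonist given at 10 nM. Arrays were chosen by these titles, since the authors had left out NARA 4 h replicates 1 and 4, and also vehicle 48 h replicate 1. The cells were at passage 5, came from the levator ani muscle of the rat, and were treated in medium in which charcoal-stripped serum, depleted of steroids, stood in for the usual serum. Vehicle arrays (0.2% DMSO) of the same hours are given beside the results, 4 at 4 h and 3 at 48 h. They also share in the estimate of spread behind every SE and p-value, which was made on 13 arrays. Exposure time and culture time change together between the NARA groups. Strain, sex and the number of animals behind the cells were not given in the sources used here. The titles call the samples biological replicates and name no separate cultures, so p-values measure a spread that may be technical.

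The androgen receptor is a ligand-activated transcription factor that binds DNA at paired half-sites and recruits coregulators, so its direct targets can change within hours and further layers of genes later. The levator ani is a pelvic muscle of the rat whose mass depends on androgens, and it is a classical test tissue for anabolic compounds. Satellite cells are the stem cells of skeletal muscle, which divide after injury and fuse into fibres.

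Of 31042 probe sets that are not array controls, 21000 averaged a signal of 300 or more on the 6 arrays and were tested, and they stood for 11289 genes. Values are MAS5 signals on a linear scale, and changes are differences of log2(signal + 50), so folds of weakly hybridised probe sets come out too small. The brightest probe set stood for a gene. Pearson's r across probe sets was 0.931 to 0.942 between any 2 of the 6 arrays, with 0.942 within 4 h and 0.935 to 0.942 within 48 h. The 3'/5' signal ratio of the actin control was 2.42 to 2.66 at 4 h and 2.97 to 3.38 at 48 h, without overlap, and that of Gapdh was 1.07 to 1.10 and 1.06 to 1.30. On the kept vehicle arrays the actin ratio was 2.52 to 2.81 at 4 h and 3.02 to 3.34 at 48 h, also without overlap. Its part in the results was not tested.

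The label of muscle satellite cell was set against defining markers. For Pax7 and Myf5 the annotation used here listed no probe set. The myogenic factor gene Myod1 had a mean signal of 109 ± 111 (SD, n = 6), below the minimum, while the cadherin gene Cdh15 had 1321 ± 276 and the myogenin gene Myog 1149 ± 348. The connective tissue genes Col1a1 and Thy1 had 74199 ± 13159 and 32559 ± 5918. Signals of different probe sets cannot be ranked against each other, so these values show which markers were measured and not what share of cells carried them. The summed signal of 17 fibroblast markers was 823589 to 905834 at 4 h and 805852 to 971822 at 48 h. In bulk RNA, fewer cells of a type and less RNA per cell cannot be told apart.

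Promoter windows of 4 genes that changed with time, chosen after their values were seen, are shown because the receptor's half-site was searched in them. Sult1a1, tied with Srpx, and Grem1 had the smallest adjusted p of a rise and of a fall, and Igf1 and Lum are a muscle growth factor and a matrix proteoglycan. Each window holds the 250 bases before the annotated start (RefSeq, GRCr8), written 5′ to 3′ on the gene's strand, with the half-site AGAACA or its reverse complement TGTTCT in capitals. The windows are chr1:190706113-190706362 on the minus strand for Sult1a1, chr7:24172282-24172531 on the plus strand for Igf1, chr3:120978320-120978569 on the minus strand for Grem1 and chr7:34245456-34245705 on the plus strand for Lum.
Sult1a1: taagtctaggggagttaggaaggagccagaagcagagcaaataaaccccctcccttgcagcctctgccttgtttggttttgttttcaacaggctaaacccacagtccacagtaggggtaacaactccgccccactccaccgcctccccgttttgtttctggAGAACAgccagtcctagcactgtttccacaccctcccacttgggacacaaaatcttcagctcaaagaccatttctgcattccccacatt
Igf1: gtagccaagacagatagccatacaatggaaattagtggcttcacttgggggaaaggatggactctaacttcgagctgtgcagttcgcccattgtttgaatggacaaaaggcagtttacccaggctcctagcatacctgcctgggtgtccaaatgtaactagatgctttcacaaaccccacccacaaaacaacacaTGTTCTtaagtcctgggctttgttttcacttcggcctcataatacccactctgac
Grem1: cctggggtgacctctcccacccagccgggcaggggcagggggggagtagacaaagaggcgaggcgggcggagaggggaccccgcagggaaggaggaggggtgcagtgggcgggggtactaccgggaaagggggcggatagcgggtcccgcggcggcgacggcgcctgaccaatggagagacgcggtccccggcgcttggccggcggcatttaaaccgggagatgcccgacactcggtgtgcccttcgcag
Lum: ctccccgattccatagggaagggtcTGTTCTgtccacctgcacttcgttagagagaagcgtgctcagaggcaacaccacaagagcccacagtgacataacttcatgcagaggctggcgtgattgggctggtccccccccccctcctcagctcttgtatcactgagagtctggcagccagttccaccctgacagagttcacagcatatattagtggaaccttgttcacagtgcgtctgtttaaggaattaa
The match began 89 bases before the start in Sult1a1, 55 before it in Igf1 and 225 before it in Lum, the last of these on the other strand as in Igf1, and the Grem1 window held none. RefSeq windows were found for 75 of the 93 genes that passed the test described next. The half-site, on either strand, was in 10.7% of 56 windows of 48 higher genes, in 13.8% of 29 windows of 27 lower genes and in 17.5% of all 33469 windows. The palindrome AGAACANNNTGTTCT was in 4 of all windows and in 0 of those of the genes that passed. A match is a description of these letters and not evidence of binding.

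Between 4 h and 48 h of NARA, the growth factor gene Igf1, the sulfotransferase gene Sult1a1 and 4 collagen genes were among those that rose, and the BMP antagonist gene Grem1, the proteoglycan gene Lum and the chemokine receptor gene Cxcr4 among those that fell. In limma, 157 of 21000 probe sets passed an adjusted p of 0.05 (0.748%), 99 higher (0.471%) and 58 lower (0.276%) at 48 h, while the unadjusted p was under 0.05 for 2423. These calls use the spread of 13 arrays, vehicle included. With the spread of the 6 NARA arrays alone, 25 probe sets passed, 24 higher and 1 lower. Of the 157, 80 changed at least 2-fold, 59 up and 21 down, and the smallest change was 0.50 on the log2 scale. Their brightest probe sets stood for 93 of 11289 genes (0.824%), 63 higher (0.558%) and 30 lower (0.266%). The median log2 change of all genes was 0.00, and 5650 of the 11289 had a positive change. In limma, 1320 of the 11289 had an unadjusted p under 0.05, the background for such counts of list members below. The 48 h arrays lay wholly above or below the 4 h arrays for each of the 157 probe sets, while 22.3% of all genes showed no overlap, 11.1% higher and 11.2% lower. Of the 93 genes, 6 had a group mean under the signal minimum and were tested only through the group in which they were high: Crispld2, Bmper, Lrp5, Slc25a25 and Il1b, with low signals at 4 h, and Adh7, with low signals at 48 h. Such a gene had to differ to be tested, so these 6 are given by their signals, without the size of the change, and they add no support to the counts of lists that hold them.

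These counts moved with single arrays. Without NARA 4 h replicate 2, 69 probe sets and 36 genes passed, and without replicate 3, 99 and 50, the lone 4 h array then being assumed to vary like the other groups. Without NARA 48 h replicate 3 the counts were 80 and 46, and without replicate 4 they were 79 and 51. Without vehicle 48 h replicate 3, which enters through the shared spread, they were 99 and 62. The call was lost for 68 of the 93 genes without NARA 4 h replicate 2 and for 67 without replicate 3. All 93 kept their direction without each of the 13 arrays in turn, and 18 also kept the call. These were Crispld2, Ces1d, Sult1a1, Thbd, Msra, Hsd11b2, Ctnnal1, Srpx, Igf1, Arl15, Tgfb2 and Lmo4, which rose, and Dab2, Lum, Ptgs2, Osr2, Wfdc18 and Grem1, which fell. A call of any other gene named here was lost without at least 1 array. For Crabp1, Ptn, Has2, Wdr41, Gjb2, Slc12a2, Atg4d, Tgm2 and Mgst1, among others, it was kept in at most 3 of the 13 fits. The kept directions add no support for any of the 93 genes. Without overlap between the NARA groups no single array could turn a direction, and vehicle arrays do not enter the change. The 6 genes with a group under the minimum had to differ to be tested, so the call of Crispld2 adds no support either.

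**Figure D1:**
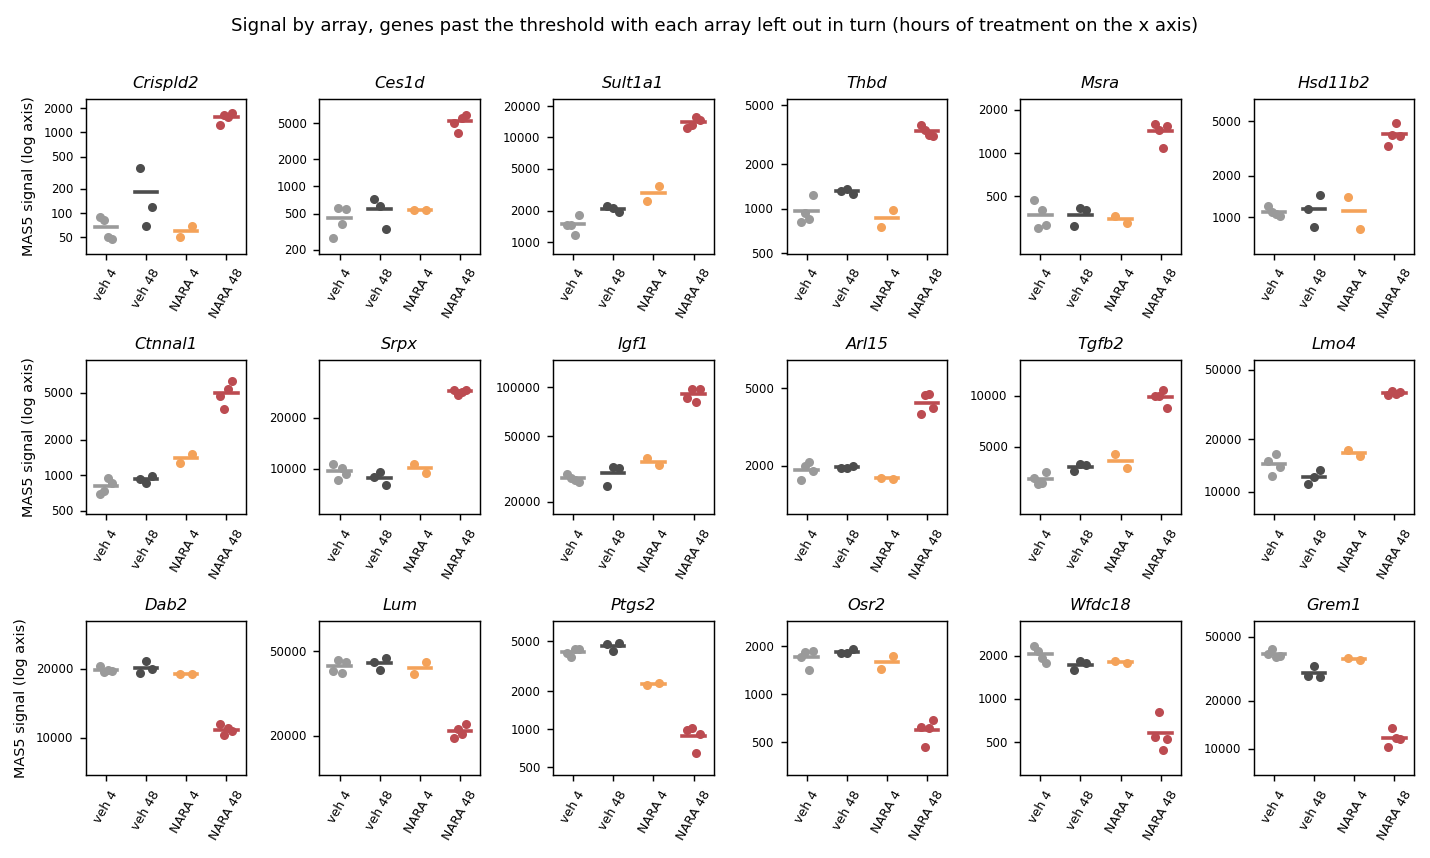
MAS5 signal (log axis) on each of 13 arrays for the 18 genes that passed without each array in turn, by treatment and hours, with 1 point per array and a bar at each group's mean. In all 18 panels the 4 NARA 48 h points lie apart from every other group, at 81278 to 97449 for Igf1 and at 10246 to 13472 for Grem1.

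Igf1, which drives muscle growth through its receptor, had signals of 36731 and 33330 at 4 h and of 86078, 96632, 81278 and 97449 at 48 h. Every 48 h array lay above both 4 h arrays, and the change was 1.36 ± 0.13 (log2, SE; adjusted p = 0.00117 in limma), or 2.57-fold. Its 2 other tested probe sets passed too, at 1.99 and 1.65. Of 15 measured genes of IGF ligands, receptors and binding proteins, 1 rose and 0 fell, and their median log2 change was 0.18 against 0.00 for all genes. The binding protein gene Igfbp2 had 315 and 564 at 4 h and 674 to 1325 at 48 h, without overlap, and did not pass (1.20 ± 0.39, adjusted p = 0.231).

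Fst, the follistatin gene, whose product binds activin and myostatin, had 1546 and 1367 at 4 h and 2849, 3913, 2672 and 3049 at 48 h. The 48 h arrays were all higher, by 1.06 ± 0.20 (adjusted p = 0.0361), a call kept in 4 of the 13 fits that leave out an array and lost without any of the 6 NARA arrays and without vehicle 4 h replicates 1 and 4 and vehicle 48 h replicate 3. The other tested probe set of Fst lay at 0.83 and did not pass (adjusted p = 0.183). Bmper, a secreted modulator of BMP signalling, had 231 and 287 at 4 h and 1962, 3284, 2642 and 2990 at 48 h. The 4 h signals were under the minimum, and the call was lost without either 4 h array. Grem1, the gremlin gene, whose product traps BMPs, had 36784 and 35864 at 4 h and fell to 10246, 13472, 11630 and 11449. The groups lay far apart, with a change of -1.64 ± 0.13 (adjusted p = 0.000336), or 3.11-fold lower. Of 27 measured genes of the activin, myostatin and BMP axis these were the only 3 that passed, 2 higher and 1 lower, and the list's median was -0.03.

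The TGF-beta ligand gene Tgfb2 had 4552 and 3771 at 4 h and 9940, 9904, 10790 and 8420 at 48 h, with no overlap and a rise of 1.22 ± 0.13 (adjusted p = 0.00178). Its other tested probe set lay at 0.62 and did not pass (adjusted p = 0.101). Ccn1, a matricellular protein that TGF-beta and serum induce, had 1278 and 1127 at 4 h and fell by 0.73 to 671, 626, 700 and 828. Of 21 genes of the TGF-beta list 1 rose and 1 fell, with a median of 0.06. In the Wnt list, 1 of 31 rose and 1 fell, with a median of -0.02. The coreceptor gene Lrp5 had 73.8 and 121 at 4 h and 354 to 694 at 48 h, the 4 h signals being under the minimum. Sfrp2, a secreted Wnt modulator, fell by 0.66 from 1716 and 1676 to between 994 and 1100. Another secreted factor, the heparin-binding growth factor gene Ptn, rose by 0.65. None of 27 genes of FGF, PDGF, VEGF and EGF signalling passed in limma (7 with an unadjusted p under 0.05), and their median was -0.12.

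Sult1a1, a sulfotransferase of phenols, had 2447 and 3400 at 4 h and 12209, 13258, 15567 and 14607 at 48 h. Ces1d, a carboxylesterase, had 543 on both arrays at 4 h and 5083, 3928, 5749 and 6199 at 48 h. No array overlapped in either gene, and the rises were 2.24 ± 0.18 (adjusted p = 0.000336) and 3.14 ± 0.32 (adjusted p = 0.00122). Hsd11b2, which inactivates glucocorticoids, had 1401 and 822 at 4 h and 3290, 3996, 4825 and 3928 at 48 h, a rise of 1.84 ± 0.23 (adjusted p = 0.00501). The hydrolase gene Cmbl rose by 1.23, from 1031 and 750 to between 1899 and 2463.

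Crabp2, which carries retinoic acid to its nuclear receptor, had 25237 and 26282 at 4 h and rose by 0.69 ± 0.10 to between 39407 and 42564. Its relative Crabp1 fell by 0.81, from 5750 and 5176 to between 2557 and 3826, and Adh7, an alcohol dehydrogenase that can oxidise retinol, had 611 and 926 at 4 h and 126 to 276 at 48 h, under the minimum. Of 28 measured genes of phase metabolism and retinoid handling, 3 rose and 2 fell, with a median of -0.04. Of 33 genes of the NRF2 and glutathione list 0 rose and 1 fell, the microsomal glutathione transferase gene Mgst1, by 0.58.

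Other genes of redox balance stood outside these lists. Msra, which repairs oxidised methionine, had 366 and 326 at 4 h and 1590, 1443, 1095 and 1546 at 48 h, and rose by 1.88 ± 0.20 (adjusted p = 0.00155). Nnt, which makes NADPH in mitochondria, rose by 0.57 from 31263 and 33841 to between 46649 and 49642. The selenium carrier gene Selenop rose by 0.83 and the glutathione transferase gene Gstm5 by 0.79. All 4 had 48 h arrays above both 4 h arrays, as had every gene that passed and rose. They were picked from the genes that passed, while the NRF2 and glutathione list had a median of -0.05 and 13 of 33 positive changes.

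Of the collagen genes, 4 rose and most others had positive changes. Col6a1, of the microfibrils around muscle fibres, had 22352 and 21716 at 4 h and 33430, 34339, 38319 and 39365 at 48 h, a rise of 0.72 ± 0.11 (adjusted p = 0.0134). Col11a1, a minor fibrillar collagen, had 13850 and 13732 against 26437, 28802, 23670 and 25493, and rose by 0.91 ± 0.13 (adjusted p = 0.00724). Both sets of arrays were well apart. Another tested probe set of Col11a1 lay at 0.51 and did not pass (adjusted p = 0.217). Col18a1 rose by 1.19, while its other tested probe set lay at 0.57 and did not pass (adjusted p = 0.269). Col4a5, a basement membrane chain, rose by 0.86. These 4 calls were lost without either 4 h array, and those of Col18a1 and Col4a5 also without NARA 48 h replicate 3. In all, Col4a5 kept its call in 9 of the 13 fits that leave out an array. Of 33 measured collagens and collagen-processing enzymes, 4 rose and 0 fell, 27 had a positive change and 20 had every 48 h array above both 4 h arrays, beside 11.1% of all genes. The list's median was 0.32 in NARA, 0.28 to 0.35 without each NARA array in turn, and 0.04 in vehicle.

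Single genes with roles in matrix, chosen after their values were seen, are given next. Fkbp10, a chaperone of procollagen, rose by 0.78 from 13392 and 14176 to between 23051 and 25724. Creb3l1, a transcription factor of the endoplasmic reticulum that activates collagen genes, rose by 1.02 from 2289 and 2370 to between 4186 and 5584. Has2, which makes hyaluronan, rose by 0.63, Cemip, which helps break it down, by 1.52, and the chondroitin synthase gene Chsy1 by 0.78. The crosslinking enzyme gene Tgm2 rose by 1.03 and the matrix gene Matn2 by 0.79. The other tested probe set of Tgm2 lay at 0.17 without passing. Srpx, a secreted protein with sushi repeats, had 10702 and 9399 at 4 h and 29144, 27346, 28450 and 29183 at 48 h, a rise of 1.50 ± 0.12 (adjusted p = 0.000336), whereas its relative Srpx2 fell by 1.07 from 10736 and 10886 to between 3755 and 6000. Crispld2, a secreted protein, had 50.4 and 68.4 at 4 h, below the signal minimum, and 1253, 1629, 1535 and 1729 at 48 h. All 48 h arrays were higher, and the size of the change depends on the offset at such low signals.

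Among small leucine-rich proteoglycans, which bind collagen fibrils, 1 gene fell. This was Lum, the lumican gene, which had 38838 and 44287 at 4 h and 19581, 21490, 20325 and 22779 at 48 h. Each 48 h array lay below both 4 h arrays, and the fall was -0.98 ± 0.12 (adjusted p = 0.00336), or 1.97-fold. Of 10 measured members 0 rose, 1 fell and 1 had a positive change, with a median of -0.20 in NARA, -0.30 to -0.13 without each NARA array in turn, and 0.14 in vehicle. Of 38 other matrix glycoproteins 2 rose (Has2 and Matn2) and 0 fell, with a median of 0.17, and of 29 matrix proteases and inhibitors 0 passed in limma (6 with an unadjusted p under 0.05).

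Of 31 measured genes of protein folding in the endoplasmic reticulum, 0 passed in limma (6 with an unadjusted p under 0.05), 28 had a positive change, beside 5650 of all 11289 genes, and 15 had all 48 h arrays above both 4 h arrays, beside 11.1%. Manf had 13535 and 12604 at 4 h and 17434 to 20308 at 48 h (0.51 ± 0.12, adjusted p = 0.109). Hspa5, the main chaperone of this compartment, had 41308 and 34876 against 41378 to 47863, groups that barely separated (0.27 ± 0.12, adjusted p = 0.450). The median was 0.21 in NARA and -0.07 in vehicle. Of 33 genes of ATF4 and the amino acid response, 1 rose and 0 fell, and 30 had a positive change. The gene that rose was Vldlr, a lipoprotein receptor, by 0.68, and Gpt2, an alanine transaminase, lay at 0.85 (adjusted p = 0.0606). Other tested probe sets of Vldlr lay at 0.55, 0.23 and 0.21 without passing. This list's median was 0.24, but 0.10 without NARA 4 h replicate 3 and 0.36 without replicate 2.

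**Figure D2:**
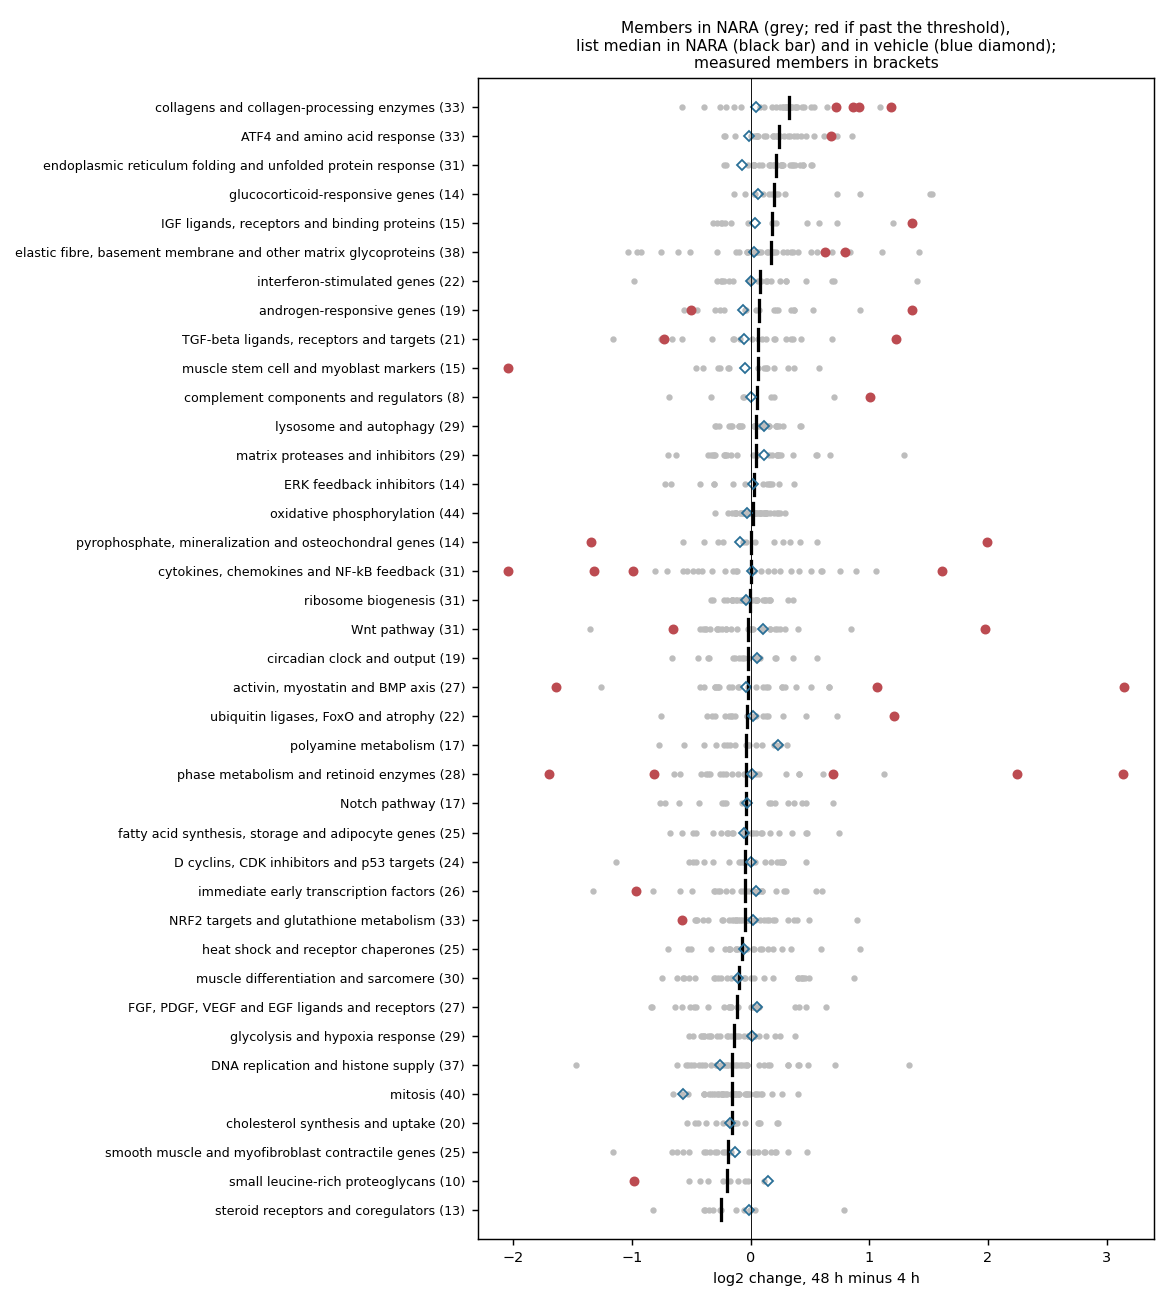
Log2 change from 4 h to 48 h for the measured members of 39 gene lists, 1 row per list, with members in NARA as grey points or, where they passed, red ones, the list's median in NARA as a black bar and in vehicle as a blue diamond. Collagens have the highest median, 0.32, and steroid receptors and coregulators the lowest, -0.25, while most red points belong to lists whose median is near 0.

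Fkbp5, which acts as a chaperone of steroid receptors and is a known androgen target, had 1728 and 1189 at 4 h and 3155, 2557, 2537 and 2856 at 48 h. The groups did not overlap, and the change of 0.92 ± 0.31 did not pass (adjusted p = 0.261). Of 19 androgen-responsive genes, Igf1 rose and Cited2, a transcriptional coregulator, fell by 0.50 (adjusted p = 0.0467), with a median of 0.07. The Cited2 call was lost in all 13 fits that leave out an array. Of 14 glucocorticoid-responsive genes 0 passed in limma (4 with an unadjusted p under 0.05) and 12 had a positive change, with a median of 0.19. Ddit4, an inhibitor of mTORC1, lay at 0.73 (adjusted p = 0.108) and the kinase gene Sgk1 at 0.29. Of 13 steroid receptors and coregulators 0 passed (6 with an unadjusted p under 0.05, beside 1320 of all 11289 genes). A positive change was seen for 2, and the list's median was -0.25, which was -0.09 without NARA 4 h replicate 3.

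Genes of inflammation gave 3 falls and 1 rise. Ptgs2, the inducible enzyme of prostaglandin synthesis, had 2230 and 2329 at 4 h and 986, 1025, 647 and 913 at 48 h. Cxcr4, the chemokine receptor that guides satellite cell migration, had 2138 and 2834 at 4 h and 475, 756, 788 and 341 at 48 h. In both genes all 48 h arrays were lower, by -1.32 ± 0.17 (adjusted p = 0.00435) and -2.04 ± 0.31 (adjusted p = 0.0132), and the Cxcr4 call was lost without either 4 h array. Its 2 other probe sets lay at -2.20 and -2.45, of which the first passed. Il1rl1, the receptor of interleukin 33, fell by 0.99, from 6933 and 6120 to between 2844 and 3721, although another of its probe sets lay at 0.53 without passing.

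Il1b, an inflammatory cytokine, had 212 and 141 at 4 h under the minimum, and 704, 543, 659 and 645 at 48 h. Of 31 genes of cytokines, chemokines and NF-kB feedback, 1 rose and 3 fell, and of 22 interferon-stimulated genes 0 passed in limma (3 with an unadjusted p under 0.05). Cd55, which protects cells from complement, rose by 1.01 from 5861 and 6695 to between 11710 and 13363. Thbd, the thrombomodulin gene of blood clotting control, had 749 and 982 at 4 h and 3675, 3413, 3132 and 3098 at 48 h, without overlap, and rose by 1.89 ± 0.17 (adjusted p = 0.000767). Thbd is also made by endothelium. Of 6 measured endothelial markers 0 passed in limma (0 with an unadjusted p under 0.05), and the list's summed signal was 7118 to 7583 at 4 h and 7866 to 9369 at 48 h.

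Lmo4, a LIM-domain cofactor of transcription, had 17249 and 15957 at 4 h and 35867, 37889, 36043 and 37288 at 48 h, a narrow group with a rise of 1.15 ± 0.13 (adjusted p = 0.00228). Osr2, a zinc finger factor of connective tissue and joints, had 1445 and 1745 against 625, 465, 613 and 692, and fell by -1.35 ± 0.16 (adjusted p = 0.0036). Egr2, an immediate early factor, had 3111 and 2934 against 1187, 1659, 1561 and 1746, and fell by -0.97 ± 0.17. Egr2 was the only 1 of 26 immediate early genes to pass, and their median was -0.05. Dab2, an endocytic adaptor, had 18970 and 19015 at 4 h and fell by 0.81 to 11472, 10263, 10982 and 10662. Rgs17 and Rgs2, which switch off G proteins, rose by 1.03 and 0.94, and Rhob, a small GTPase, by 0.85.

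Membrane proteins and transporters included Enpp1, which makes extracellular pyrophosphate and holds back mineralization. It had 1140 and 1037 at 4 h and 4170, 4738, 3653 and 5558 at 48 h, all higher, and rose by 1.99 ± 0.27 (adjusted p = 0.00592), a call lost without NARA 4 h replicate 3. Of 14 genes of pyrophosphate and mineralization, Enpp1 rose and Osr2 fell. The sodium-calcium exchanger gene Slc8a1 rose by 1.44, the choline transporter gene Slc5a7 by 1.49 and the ion cotransporter gene Slc12a2 by 0.61. Ramp2, a partner of the calcitonin receptor-like receptor, rose by 1.24 and the glutamate receptor gene Gria3 by 0.76. The gap junction gene Gjb2 fell by 1.10 from 2264 and 2242 to between 909 and 1182, the cadherin gene Cdh11 by 0.65 and the aminopeptidase gene Enpep by 0.89. The other tested probe set of Cdh11 lay at 0.73 without passing, so its direction depends on the probe set.

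Trim63, the ubiquitin ligase MuRF1 of muscle wasting, had 2149 and 3016 at 4 h and 5522, 6562, 5333 and 6426 at 48 h, all higher, and rose by 1.21 ± 0.20 (adjusted p = 0.0208), a call lost without NARA 4 h replicate 2 or NARA 48 h replicate 4. It was the only 1 of 22 atrophy genes to pass. Of 15 stem cell and myoblast markers Cxcr4 fell and 0 rose. Of 30 genes of muscle differentiation 0 passed in limma (3 with an unadjusted p under 0.05). Myog had 841 and 1298 at 4 h and 1118, 701, 1673 and 1264 at 48 h, overlapping groups (0.12 ± 0.37, adjusted p = 0.946). The desmin gene Des overlapped too, with 845 and 636 against 650.0 to 864 (0.06 ± 0.22, adjusted p = 0.955).

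Of 25 measured contractile genes of smooth muscle, 0 passed in limma by the brightest probe set (7 with an unadjusted p under 0.05). A positive change was seen for 10, and another 10 had all 48 h arrays below both 4 h arrays, beside 11.2% of all genes. Tagln had 15518 and 9772 at 4 h and 4290 to 6689 at 48 h (-1.16 ± 0.28, adjusted p = 0.106), and Tpm1, a tropomyosin gene, had 16280 and 15339 against 9780 to 11321 (-0.57 ± 0.12, adjusted p = 0.0546). Of 3 other tested probe sets of Tpm1, 1 passed, at -0.92 (adjusted p = 0.00596), and the others lay at -0.10 and -0.30. The list's summed signal was 236360 to 260599 at 4 h and 205026 to 229955 at 48 h, without overlap. In vehicle the sum was 239016 to 262858 at 4 h and 225557 to 249869 at 48 h, overlapping ranges. The list's median was -0.19 in NARA and -0.13 in vehicle, and it was -0.07 without NARA 4 h replicate 2.

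Of 40 mitosis genes 0 passed in limma, 0 had an unadjusted p under 0.05 and 8 had a positive change. Their median was -0.16 in NARA, where it turned to 0.01 without NARA 4 h replicate 2 and reached -0.35 without replicate 3, and -0.57 in vehicle. Ccnb1, the cyclin of mitotic entry, had 2393 and 1753 at 4 h and 2139, 2114, 1707 and 1558 at 48 h (-0.13 ± 0.21, adjusted p = 0.865), and the proliferation marker Mki67 lay at -0.34 ± 0.22 (adjusted p = 0.613). Both groups of arrays overlapped. Of 37 DNA replication genes and 24 genes of D cyclins and CDK inhibitors, 0 passed (6 of each with an unadjusted p under 0.05). The inhibitor gene Cdkn1c lay at -1.13 (adjusted p = 0.0843). Lists of oxidative phosphorylation, glycolysis, cholesterol synthesis, ribosome biogenesis and the circadian clock had no member past limma's threshold, and 1 of 44, 7 of 29, 4 of 20, 1 of 31 and 5 of 19 members had an unadjusted p under 0.05.

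The same hours in vehicle served as the measure of culture time alone, on arrays that the NARA comparison does not use except for the shared spread. In limma 0 of 21000 probe sets passed between vehicle 48 h and vehicle 4 h, 1562 had an unadjusted p under 0.05, and the smallest adjusted p was 0.0715. Of the 93 genes that passed in NARA, 66 had the same sign in vehicle, 48 of the 63 higher and 18 of the 30 lower, beside 52.5% of all genes, and 0 changed 2-fold there. Their median size was 0.99 in NARA and 0.17 in vehicle. Igf1 had 26360 to 29677 in vehicle at 4 h and 25124 to 32445 at 48 h, overlapping groups, and Lum had 39414 to 45191 and 40941 to 46151. Il1rl1 had the greatest negative change among the 93 genes in vehicle, -0.80, from 7484 ± 1572 (SD, n = 4) to 4214 ± 213 (SD, n = 3). Crispld2 had the greatest positive one, 0.81, with 361, 69.4 and 120.5 on the 3 arrays at 48 h, so that 1 array set it.

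The difference between the 2 time courses was tested directly, and this test equals that of the NARA effect at 48 h against that at 4 h. It passed for 26 probe sets (0.124%) and 17 genes (0.151%), and 15 of the 17 had also passed in NARA over time. Thbd differed by 1.44 ± 0.23 (adjusted p = 0.0398), with a mean of 866 at 4 h and 3329.6 at 48 h in NARA, and of 962 and 1314 in vehicle. Msra differed by 1.86, Sult1a1 by 1.74 and Lmo4 by 1.38, and Lum and Dab2 by -1.03 and -0.83. Cxcr4 (-2.47, adjusted p = 0.0577) and Fst (1.49, adjusted p = 0.0691) did not pass. Without vehicle 48 h replicate 3 or NARA 48 h replicate 4 the count of probe sets was 1. It was 4 without NARA 4 h replicate 3, 9 without replicate 2, 11 without vehicle 4 h replicate 3 and 16 without vehicle 48 h replicate 2.

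**Figure D3:**
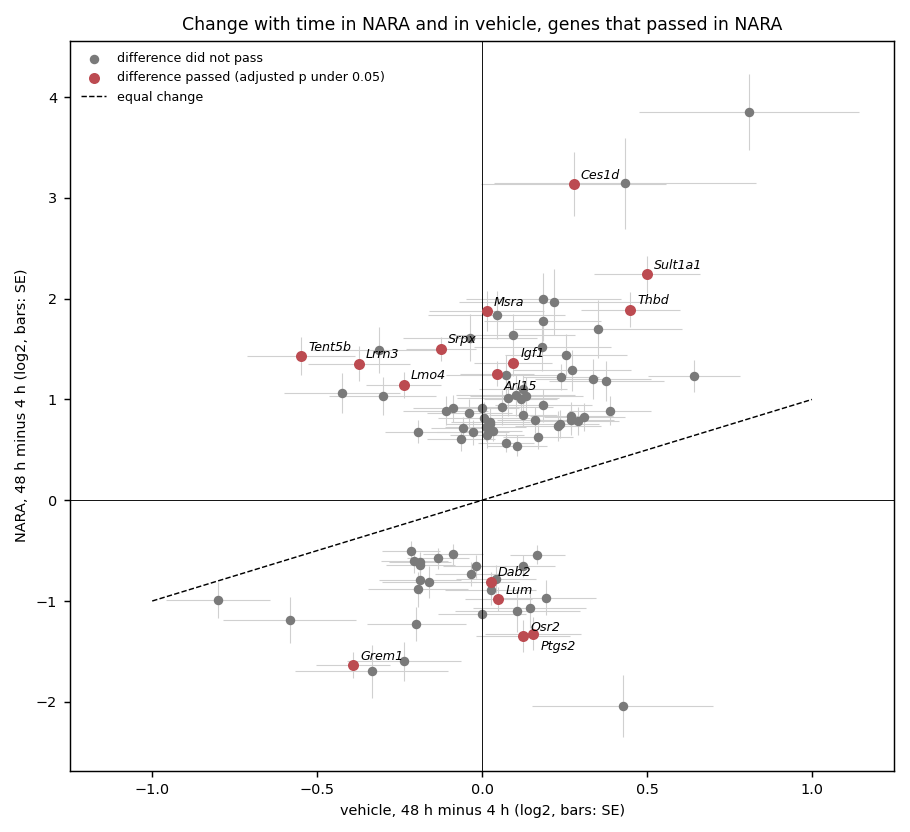
Log2 change from 4 h to 48 h in vehicle (x axis) and in NARA (y axis) for the 93 genes that passed in NARA, with SE bars, red where the difference of the changes passed, and a dashed line of equal change. Points lie between -0.80 and 0.81 on the x axis and spread from -2.04 to 3.85 on the y axis. The top point is Crispld2, which was tested only through its 48 h signals.

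The level at each time was set beside the 7 vehicle arrays of both hours, as a description with no test. Of the 63 genes that rose, 57 had all 4 NARA 48 h arrays above all 7 vehicle arrays. At 4 h, 42 of these 57 lay within the vehicle range or mixed with it, 13 already lay above it, among them Igf1, Sult1a1, Enpp1 and Fst, and 2 lay below it. The other 6 genes that rose showed another pattern: Lrp5, Slc25a25, Il1b, Atg4d, Wdr41 and Has2 lay below all vehicle arrays at 4 h and neither wholly above nor wholly below them at 48 h. The highest vehicle array was passed by 3 of the 4 arrays at 48 h for Has2, by 2 for Il1b and Atg4d, by 1 for Wdr41 and by 0 for Lrp5 and Slc25a25. For Lrp5 the vehicle arrays had 338 to 472 at 4 h and 354 to 866 at 48 h, against 73.8 and 121 in NARA at 4 h. For the mitochondrial carrier gene Slc25a25 these were 225 to 585 and 359 to 501, against 89.2 and 128. These 6 patterns rest on the 2 arrays at 4 h.

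All 30 genes that fell had the 4 NARA 48 h arrays below all 7 vehicle arrays. At 4 h, 20 of them were within the vehicle range or mixed with it, 8 already lay below it and 2, Mgst1 and Ccn1, lay above it. Ptgs2 was among the 8, with 3746 to 4314 in vehicle at 4 h and 4158 to 4837 at 48 h, above its 2 NARA 4 h signals. Grem1 was among the 20, with 37258 to 41886 in vehicle at 4 h and 27909 to 33085 at 48 h. Over all 11289 genes, 87.8% were within or mixed at both times. Above at 48 h were 2.99% within or mixed at 4 h, 0.682% already above and 0.0177% below at 4 h. Below at 48 h were 2.83% within or mixed at 4 h, 0.593% already below and 0.0354% above at 4 h. The genes that rose or fell were chosen by a test that uses the NARA 48 h arrays. Their place outside the vehicle range at 48 h may therefore follow in part from that choice.

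**Figure D4:**
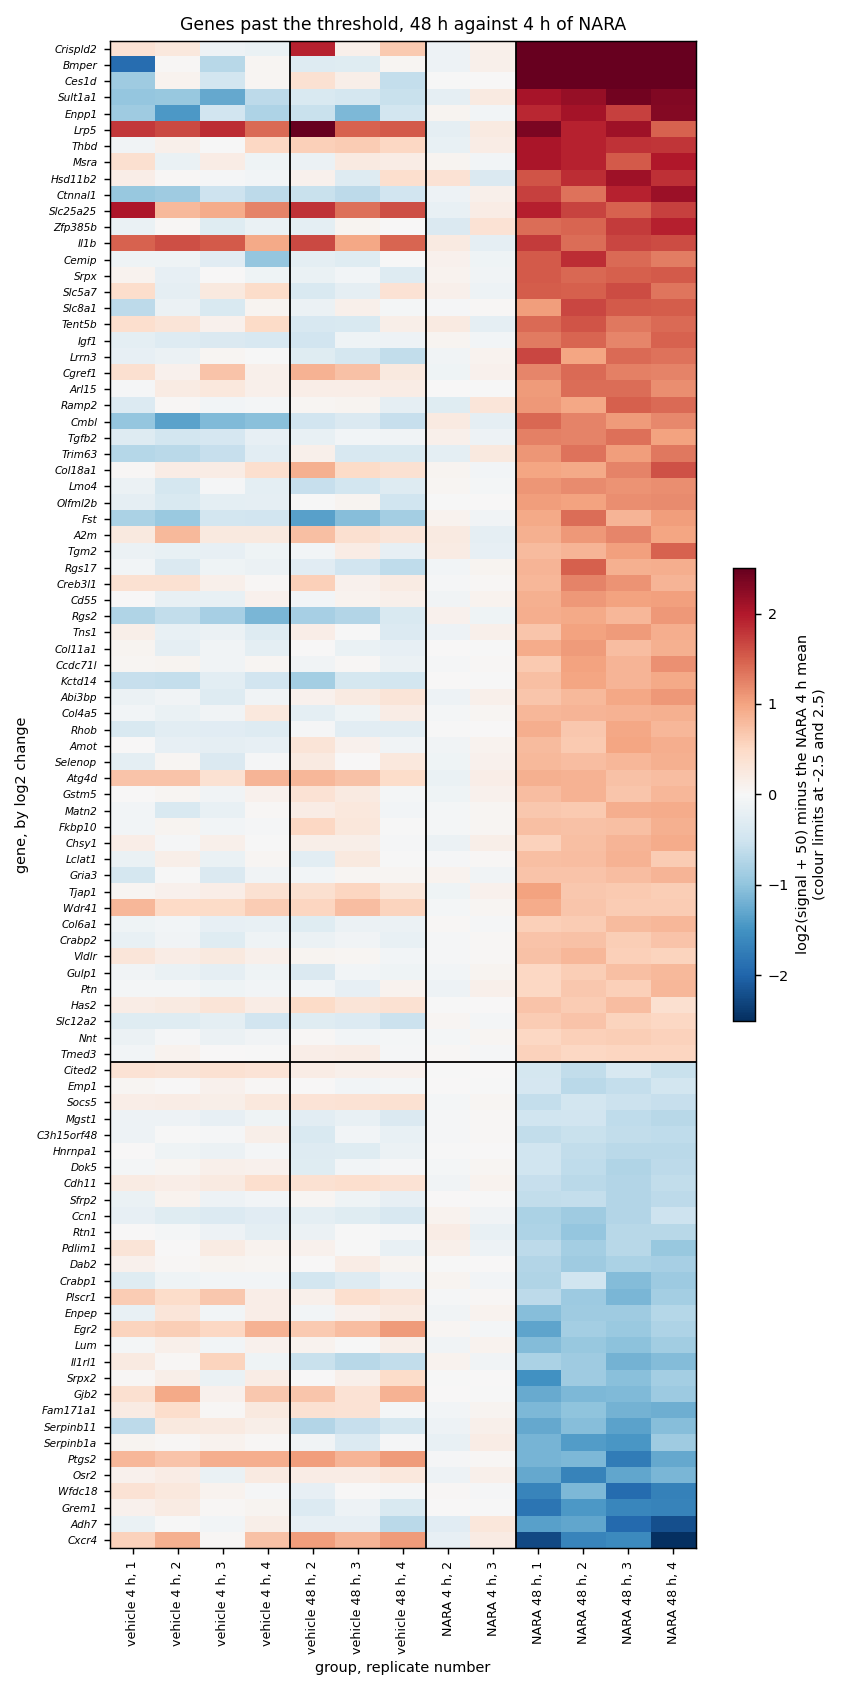
Log2(signal + 50) of the 93 genes that passed, 1 row per gene in the order of change and 1 column per array, as the difference from the gene's NARA 4 h mean (red higher, blue lower, colours limited at -2.5 and 2.5). The 4 NARA 48 h columns are red in the upper 63 rows and blue in the lower 30, and Lrp5, Slc25a25 and Il1b are red in the vehicle columns too.

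Other probe sets of the same genes mostly moved the same way. Of the 93 genes, 31 had 42 further tested probe sets, of which 38 had the same sign and 6 of these passed, and 0 passed with the opposite sign. Beside Cdh11 and Il1rl1, the opposite sign was seen for Wdr41 (-1.02) and Zfp385b (-0.40). Other probe sets of Tent5b and Fam171a1 lay at 0.00 and -0.01 while their brightest lay at 1.43 and -1.13.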

How the data were processed

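Total RNA of each sample was hybridised to 1 Affymetrix Rat Genome 230 2.0 array. The deposited intensity values are linear MAS5 signals, as the submitters' processing notes name them, which the authors scaled to a trimmed mean of 1500 per array, per the series' design text. The trimmed mean of the deposited signals was 1500.45 to 1500.56. For the extraction, the labels' protocols name Trizol and the design text names a column kit. Detection calls were not used. The number of arrays limits the precision.

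Of 31099 probe sets, 57 were controls. The platform annotation gave 20826 of the others 1 symbol, 436 several and 9780 none, and 20758 were matched in RefSeq. Probe sets whose signal averaged 300 or more on the 6 arrays were tested, 15450 with 1 symbol, 344 with several and 5206 with none. Group means of log2(signal + 50) on 13 arrays were fitted with limma 3.58.1 (lmFit, eBayes; 9 residual and 2.4 prior degrees of freedom) in R 4.3.3. Two-sided p-values were adjusted by Benjamini-Hochberg over the 21000 probe sets, and the statistics were tested on simulated data.

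The comparison, the 45 gene lists (1244 members, 957 tested) and the naming rule were chosen with earlier results of these data known. The rule took the 12 higher and 12 lower genes of greatest fold among those that passed without overlap, at most 4 genes per list by smallest p, 6 in each direction for the difference from vehicle, and Igf1, Fst, Fkbp5, Myog, Des, Mki67, Ccnb1, Hspa5, Cxcr4 and Ptgs2. It covered 47 of the 93 genes, and any other gene named was chosen after its values were seen. Same-numbered arrays did not deviate together (r -0.03 to 0.04), so replicate numbers were not taken as pairs.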

Additional observations from a re-analysis of the deposited data

Results flagged for a closer look

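Single arrays stood apart among the 4 NARA 48 h signals in 4 of the 93 genes, a pattern that chance gives in about 1 in 20 groups. The gap to the next array was 0.922 of the range for Rgs17 (replicate 2 highest, 4802 against 3189) and 0.899 for Fkbp10 (replicate 4 highest, 25724 against 23307). It was 0.901 for Crabp2 (replicate 3 lowest, 39407 against 42242) and 0.877 for Tjap1 (replicate 1 highest, 2028 against 1585).

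The change with time in NARA differed from that in vehicle for 17 genes, by limma's test of the difference. It was greater in NARA by 2.86 for Ces1d (adjusted p = 0.0280), 1.98 for Tent5b, 1.86 for Msra, 1.74 for Sult1a1, 1.73 for Lrrn3, 1.63 for Srpx (adjusted p = 0.00982), 1.44 for Thbd, 1.38 for Lmo4, 1.27 for Igf1 and 1.21 for Arl15. The difference was -1.48 for Ptgs2, -1.47 for Osr2, -1.25 for Grem1, -1.16 for Olfml2a, -1.11 for Tk2, -1.03 for Lum and -0.83 for Dab2. Tk2, a mitochondrial thymidine kinase, and Olfml2a had not passed in NARA over time. Tk2 had 1395 and 1342 in NARA at 4 h and 793 to 1043 at 48 h, while vehicle had 918 to 1065 at 4 h and 1479 to 1512 at 48 h. Olfml2a likewise went down in NARA, to between 1564 and 1899, and up in vehicle, to between 3850 and 4520, and neither single change passed.

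In the 2 NARA 4 h arrays that the authors left out, the median log2 difference of a list of liver genes from the kept NARA 4 h arrays was 8.32 in replicate 1 and 8.63 in replicate 4. These arrays correlated with the kept ones at 0.645 to 0.673. No cause was tested.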

How the results depend on the processing

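With 2 arrays at 4 h, no count of calls was stable. Main counts were 157 probe sets and 93 genes in NARA over time, 26 probe sets for the difference from vehicle and 0 in vehicle over time. With only the groups compared they were 25, 14 and 4 in vehicle, with 24 of the 25 higher. With all 16 arrays they were 23, 16 and a difference of 0, with vehicle 48 h replicate 1 put back a difference of 61 and 1 in vehicle. Without a signal minimum they were 79, 48 and 11, at 1000 as the minimum 324, 206 and 87, and under a trended, robust prior 368, 234 and 125. An offset of 200 gave a difference of 48, and an offset of 1, quantile scaling and median scaling each gave 1 in vehicle. Leaving out each array in turn gave 69 to 151 probe sets, 36 to 92 genes, a difference of 1 to 33 and 0 to 2 in vehicle. The share of higher calls was 63.1%, 62.5% and 63.6% under the scalings, 51.4% under the trended, robust prior, 55.2% at the minimum of 1000, 70.9% without a minimum, 87.0% with all 16 arrays, and 79.7% and 82.8% without NARA 4 h replicates 2 and 3. With the replicate number as a block, 44 probe sets and 27 genes passed and the difference had 0. Whether arrays of the same number belong together is not given by the titles.

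Directions held for all 93 genes except with all 16 arrays, where 21 turned: Slc25a25 (-1.72), Cmbl (-1.35), Tgm2 (-0.15), Selenop (-0.45), Atg4d (-0.26), Cited2 (0.43), Emp1 (2.38), Socs5 (0.87), C3h15orf48 (1.14), Hnrnpa1 (0.54), Dok5 (1.73), Cdh11 (1.30), Dab2 (0.50), Crabp1 (0.52), Egr2 (0.40), Lum (3.30), Il1rl1 (1.07), Srpx2 (2.08), Ptgs2 (0.24), Osr2 (0.74) and Grem1 (1.56). Cdh11 also turned, to 0.039, as the mean over its probe sets. The cause was not tested.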

Other observations

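Several genes that passed belong to no list used here. Arl15, a small GTPase, had 1736 and 1714 at 4 h and 3677, 4592, 4654 and 3931 at 48 h, all higher. Ctnnal1, a relative of alpha-catenin, had 1273 and 1522 at 4 h and 4692, 3633, 5390 and 6299 at 48 h. Wfdc18, a secreted protein with a whey acidic domain, fell from 1847 and 1786 to 545, 808, 439 and 528, and the protease inhibitor gene Serpinb1a fell from 2665 and 3485 to between 1084 and 1619. Tns1, a tensin of focal adhesions, rose by 0.92 and Amot, an adaptor of the Hippo pathway, by 0.84, while the LIM-domain gene Pdlim1, which binds actin filaments, fell by 0.79. In all, 61 of the 93 genes were in no list.

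Markers of other tissues did not pass singly. Of 7 liver, 9 leukocyte, 6 Schwann cell and 5 epithelial markers measured, 0 passed in limma, with 2, 1, 0 and 0 at an unadjusted p under 0.05. The summed signal of the liver list was 5072 to 5943 at 4 h and 5507 to 7351 at 48 h, and that of the leukocyte list was 7318 to 9413 and 8293 to 9951.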
